A study of Mus musculus with 4 samples.

Results

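Messenger RNA levels of 9 genes were examined in lamina propria mononuclear cells of mouse gut: the receptor gene Csf1r, the genes of its ligands Csf1 and Il34, and 6 genes used as markers of resident macrophages, Adgre1, Cx3cr1, Mertk, Cd163, Mrc1 and Folr2. They were taken by name from a table of 48526 gene identifiers, and all 9 had a row. In 2 samples, called DKO, the mice had received CD4 cells that were double knockouts for Hobit and Blimp, a pair of transcription factors of tissue-resident lymphocytes, and the labels give mild colitis. In the other 2, called wild type, the transferred CD4 cells were wt, and the labels give pronounced colitis. These genotypes refer to the transferred cells alone, and such T cells do not give rise to macrophages. The labels and protocols used here do not state the strain, age or genotype of the recipient mice. The comparison asks how the cells of the lamina propria differ when the transferred T cells lack the factors of tissue residency, and it cannot separate the transfer from the grade of colitis, which differ together.

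The receptor encoded by Csf1r is a tyrosine kinase of macrophages and monocytes, on which most of these cells depend for survival and growth. It binds the proteins CSF1 and IL34, ligands that are made largely by stromal, endothelial and epithelial cells and that share the receptor although their sequences are little alike. In the gut, monocytes from blood refill much of the macrophage pool, and mature macrophages there gain Adgre1 (F4/80), Cx3cr1 and scavenging receptors such as Cd163 and Mrc1.

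The values are rlog, a regularized log2 of normalized read counts made by the authors, in which differences are pulled towards 0, most where reads are few. Depth per sample is unknown. The median rlog of the 13528 genes tested, those with a mean of at least 4, lay between 8.33 and 8.35 in the 4 samples. The 12 genes of all leukocytes had the highest summed level of the marker lists (log2 of the sum of 2 to the power rlog). It was 16.74 to 16.77 in DKO and 16.98 to 17.00 in wild type. Such sums depend on which and how many genes a list holds and on their lengths, and are not shares of cells. Other cells were present as well: the summed level of 10 epithelial genes was 14.03 to 14.15 in DKO and 13.99 to 14.11 in wild type, and that of 14 fibroblast and muscle genes was 16.10 to 16.18 in DKO and 15.27 to 15.41 in wild type. Macrophage genes ranged widely in level, with the mean rlog of Csf1r above 97.7% of tested genes and that of Folr2 too low for the test.

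The ligands were higher and the receptor was lower in DKO. Csf1 rose by 0.69 on the rlog scale and Il34 by 0.80, while Csf1r fell by 0.41, Adgre1 by 0.37 and Mrc1 by 0.37. In limma with Benjamini-Hochberg adjustment over all tested genes (threshold 0.05), 2 of the 8 tested members rose, against 9.92% of all tested genes, and 3 fell, against 4.85%. Cx3cr1, Mertk and Cd163 did not pass, and Folr2 was too low to be tested. The groups did not overlap for the 2 members that rose (25.0% of all tested genes were higher in DKO in this way) and for 4 that were lower, Csf1r, Adgre1, Mrc1 and Mertk (30.3% of all tested genes). The calls of the ligands held without each single sample and under each scaling tried, whereas those of Csf1r, Adgre1 and Mrc1 did not. Of the scalings, centring on the leukocyte genes raised every difference by the same amount, so it could not test the rises. A fit without a sample takes the spread of that sample's group from the other group. Its p-values therefore do not measure how well the replicates of that group repeat. With no filter on low values, 0 of the 9 passed (5 at an unadjusted p under 0.05 in limma). In such bulk samples fewer cells of a type and less RNA per cell cannot be told apart.

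**Figure D1:**
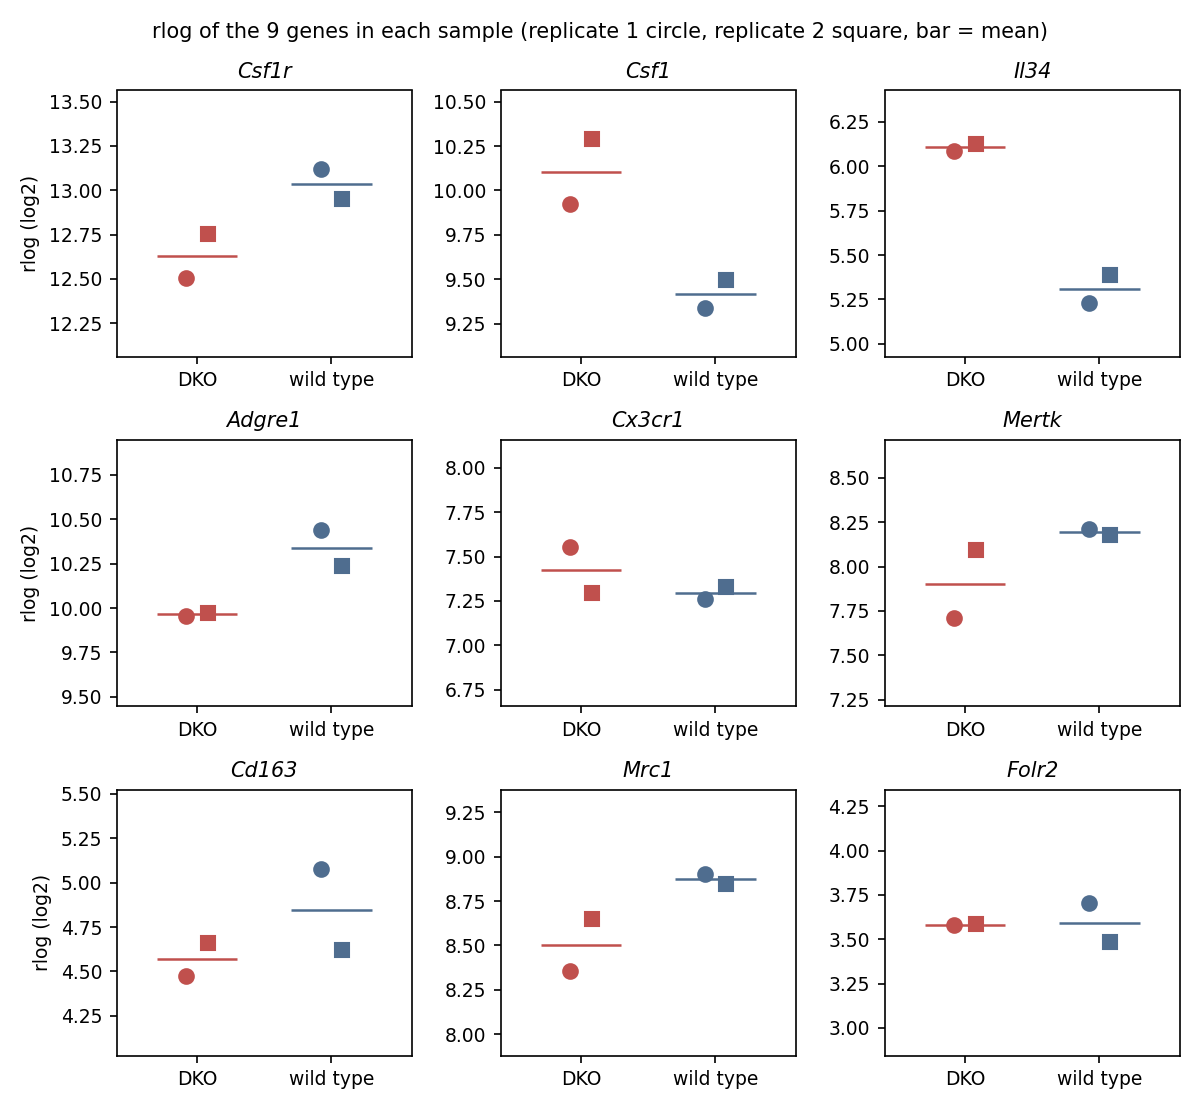
Each panel plots the rlog (log2) of 1 gene in the 2 DKO samples (left) and the 2 wild-type samples (right), with replicate 1 as a circle, replicate 2 as a square and a bar at the group mean; every vertical axis spans the same range on the log2 scale. The points of Csf1 and Il34 are higher in DKO and those of Csf1r, Adgre1, Mertk and Mrc1 lower in DKO with no overlap, while the groups overlap for Cx3cr1, Cd163 and Folr2.

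Csf1 (ENSMUSG00000014599, GRCm38 chromosome 3, 107741048 to 107760469, minus strand) encodes macrophage colony-stimulating factor. Its rlog was 9.92 and 10.29 in DKO, against 9.34 and 9.50 in wild type. Both DKO samples lay above both wild-type samples, and DKO replicate 2 was the highest. The difference was 0.69 (SE 0.116, adjusted p = 0.00184 in limma), a fold of 1.61 on this shrunken scale. Among the fits that left out 1 sample it was smallest without DKO replicate 2, at 0.50, where the spread comes from the wild-type samples alone.

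Il34 (ENSMUSG00000031750, chromosome 8, 110741829 to 110805924, minus strand) encodes the cytokine IL34, the other ligand of the receptor. It stood at 6.09 and 6.13 in DKO, against 5.23 and 5.38 in wild type. The DKO samples were 0.04 apart and the wild-type samples 0.16 apart, so the difference of 0.80 (SE 0.115, adjusted p = 0.000699 in limma) was larger than the spread within either group. Of the 8 tested members Il34 had the largest difference, although its level was low, above 15.4% of tested genes. A pair of genes on the opposite strand overlap it, Gm15894 and Gm15895, with mean rlog of -1.02 and -0.67. The libraries were stranded, but the sources do not say whether counting used the strand.

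Fibroblast and vessel genes moved with the ligands. Of 14 fibroblast and smooth muscle genes 12 rose and 0 fell, with a median difference of 0.91, against a median of -0.02 over all tested genes. Of all tested genes 9.92% rose and 4.85% fell. Of 13 tested endothelial genes 13 rose, with a median of 1.2 and a summed level of 12.63 to 12.77 in DKO and 11.70 to 11.85 in wild type (Ccl21a was listed at 0). Pdgfra, a receptor of fibroblasts, rose by 1.07 (SE 0.116), Col6a1 by 1.15 (SE 0.0914), Kdr, the endothelial receptor for vascular growth factor, by 1.55 (SE 0.103) and Emcn by 1.44 (SE 0.116). With a robust variance estimate 7 of the 14 fibroblast genes rose. Of 10 epithelial genes only Car1, a carbonic anhydrase, rose (0.46, SE 0.0901, adjusted p = 0.00463), and its adjusted p was 0.0712 without wild-type replicate 2. The part of these cells in the rise of the ligands was not tested.

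Csf1r (ENSMUSG00000024621, chromosome 18, 61100598 to 61132149, plus strand) had an rlog of 12.50 and 12.75 in DKO, against 13.12 and 12.95 in wild type. The groups did not overlap, but DKO replicate 2 lay closer to wild-type replicate 2 than to DKO replicate 1. The difference was -0.41 (SE 0.108, adjusted p = 0.0264 in limma), a fold of 0.753. It did not pass without DKO replicate 1 (-0.28, adjusted p = 0.0668) or without wild-type replicate 1 (-0.32, adjusted p = 0.204), nor with quantile normalization (-0.30, adjusted p = 0.0839). The last exons of Hmgxb3 overlap the end of Csf1r on the opposite strand, with a mean rlog of 8.48 against 12.83 for Csf1r.

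Adgre1 (ENSMUSG00000004730, chromosome 17, 57358691 to 57483527, plus strand) encodes the adhesion receptor F4/80, the classical surface marker of mouse macrophages. It was at 9.96 and 9.97 in DKO, against 10.44 and 10.24 in wild type. The DKO samples were almost equal, and the fall of 0.37 (difference -0.37, SE 0.0879, adjusted p = 0.0147) was no longer called once wild-type replicate 1 was left out (-0.27, adjusted p = 0.186). Its relative Adgre4, another receptor of myeloid cells, fell by 0.57 (SE 0.0961, adjusted p = 0.00187), while Adgre5, which most leukocytes express, stood at -0.08 (SE 0.0828, adjusted p = 0.6).

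Mrc1 (ENSMUSG00000026712, chromosome 2, 14229392 to 14332057, plus strand) encodes the mannose receptor CD206, which takes up glycoproteins and collagen fragments. Its rlog was 8.36 and 8.65 in DKO, against 8.90 and 8.84 in wild type. All DKO values lay below all wild-type values, and the DKO samples were further apart (0.29) than the wild-type samples (0.06). The difference of -0.37 (SE 0.107) passed narrowly (adjusted p = 0.0397). The call was lost without DKO replicate 1 (-0.22, adjusted p = 0.188), without wild-type replicate 1 (adjusted p = 0.15) and without wild-type replicate 2 (adjusted p = 0.0893), with no variance trend (adjusted p = 0.0628) and with quantile normalization (adjusted p = 0.0501). Its family members Mrc2 and Pla2r1, which are receptors of fibroblasts and other stromal cells, rose by 0.83 (SE 0.112) and 1.27 (SE 0.115), and Ly75, the receptor DEC-205 of dendritic cells, stood at 0.02 (SE 0.104).

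Mertk (ENSMUSG00000014361, chromosome 2, 128698956 to 128802894, plus strand) encodes a receptor kinase by which macrophages take up dying cells. It was at 7.71 and 8.09 in DKO, against 8.21 and 8.18 in wild type. The groups did not overlap, yet DKO replicate 2 lay closer to both wild-type samples than to DKO replicate 1, and the difference of -0.29 (SE 0.124) did not pass (adjusted p = 0.157). Without DKO replicate 2 it was -0.48, and without DKO replicate 1 it was -0.10. The bridging ligands that link this receptor to dying cells rose, Pros1 by 1.08 (SE 0.0911, adjusted p = 2.89e-05) and Gas6 by 0.55 (SE 0.09, adjusted p = 0.0016). The related receptors Axl (0.15, SE 0.0825, adjusted p = 0.278) and Tyro3 (0.12, SE 0.118, adjusted p = 0.575) did not pass.

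Cd163 (ENSMUSG00000008845, chromosome 6, 124304656 to 124330527, plus strand) encodes the scavenger receptor for complexes of haemoglobin and haptoglobin. It was low in all samples, at 4.47 and 4.66 in DKO and 5.08 and 4.62 in wild type, a level above 6.26% of tested genes. The groups overlapped, and wild-type replicate 1 stood above the other samples. The difference of -0.28 (SE 0.152) did not pass (adjusted p = 0.283), and it was -0.05 without wild-type replicate 1 and -0.51 without wild-type replicate 2 (adjusted p = 0.0573). Hp, which encodes haptoglobin and which neutrophils also make, fell by 0.90 (SE 0.0809, adjusted p = 3.92e-05). Hmox1, the haem oxygenase, was at -0.20 (SE 0.0881, adjusted p = 0.179, and -0.30 without DKO replicate 2), and the iron exporter Slc40a1 at -0.02 (SE 0.0973, adjusted p = 0.92).

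Cx3cr1 (ENSMUSG00000052336, chromosome 9, 119901616 to 120069879, minus strand) encodes the receptor for fractalkine, which gut macrophages gain as they mature and which some monocytes and lymphocytes also carry. Its rlog was 7.55 and 7.30 in DKO, against 7.26 and 7.33 in wild type. DKO replicate 1 stood apart from the other 3 samples, and the difference of 0.13 (SE 0.116, adjusted p = 0.533) was 0.0013 without it. Cx3cl1, the gene of its ligand, rose by 0.53 (SE 0.111, adjusted p = 0.00756). The annotated span of Cx3cr1 covers other genes, of which Gorasp1, Csrnp1 and Xirp1 are on the same strand, so reads of long isoforms could be shared.

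Folr2 (ENSMUSG00000032725, chromosome 7, 101839988 to 101857194, minus strand) encodes folate receptor beta, a marker of tissue macrophages that settle near vessels. It was at 3.58 and 3.59 in DKO, against 3.70 and 3.49 in wild type. Its mean of 3.59 kept it out of the test. With no minimum the difference was -0.01 (SE 0.1, adjusted p = 0.974), and at this level rlog shrinkage is strong, so a difference may have gone undetected. The folate carriers Slc19a1 (-0.21, SE 0.111, adjusted p = 0.27) and Slc46a1 (0.0058, SE 0.109, adjusted p = 0.984) did not pass either.

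Levels of different genes were set against each other per kilobase of annotated exon, as rlog minus log2 of that length, a scale on which the long annotated exons of all isoforms count. On it the order was the same in both groups. Csf1r came first at 10.10 in DKO and 10.51 in wild type. Adgre1 followed at 8.27 in DKO and 8.64 in wild type, and Csf1 at 7.70 in DKO and 7.02 in wild type. Next were Mrc1 (5.83 in DKO, 6.20 in wild type) and Mertk (5.79 in DKO, 6.08 in wild type). Cx3cr1 (5.25 in DKO, 5.12 in wild type) and Il34 (5.14 in DKO, 4.34 in wild type) came after these, and Folr2 (2.95 in DKO, 2.97 in wild type) and Cd163 (2.12 in DKO, 2.40 in wild type) were the lowest. In DKO, Mrc1 and Mertk, and Cx3cr1 and Il34, differed by less than the SD between replicates of Mertk (0.267) and Cx3cr1 (0.183). Per kilobase Il34 made up 15.9% and 13.1% of the summed ligand messages in DKO, against 13.5% and 13.5% in wild type.

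Set against Csf1r in the same sample, where any common scaling cancels, both ligands were higher in DKO. As the ligands were already higher and Csf1r lower in both DKO samples, these differences had to separate the groups. They restate the levels given above and are no further support for them. Csf1 minus Csf1r was -2.58 and -2.46 in DKO, against -3.78 and -3.46 in wild type, so that the message of the ligand relative to its receptor was 2.14 times as high in DKO (difference 1.1, exact two-sided permutation test p = 0.33, the smallest that 2 against 2 samples allow). Il34 minus Csf1r was -6.42 and -6.62 in DKO, against -7.89 and -7.57 in wild type (difference 1.21). The ligands moved alike: Il34 minus Csf1 was -3.83 and -4.16 in DKO and -4.11 and -4.11 in wild type, with overlapping groups. Adgre1, Mrc1, Mertk and Cd163 relative to Csf1r overlapped between the groups, with differences of 0.04, 0.04, 0.12 and 0.13. Cx3cr1 relative to Csf1r was -4.95 and -5.46 in DKO, against -5.86 and -5.62 in wild type, a difference of 0.54 with no overlap. Folr2 relative to Csf1r was -8.93 and -9.16 in DKO, against -9.42 and -9.47 in wild type, a difference of 0.40 with no overlap, although the level of Folr2 itself overlapped between the groups. Csf1r itself was lower in DKO (difference -0.41), so a gene with no difference of its own comes out higher relative to it. The share of all tested genes that separate from Csf1r in this way was not counted.

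**Figure D2:**
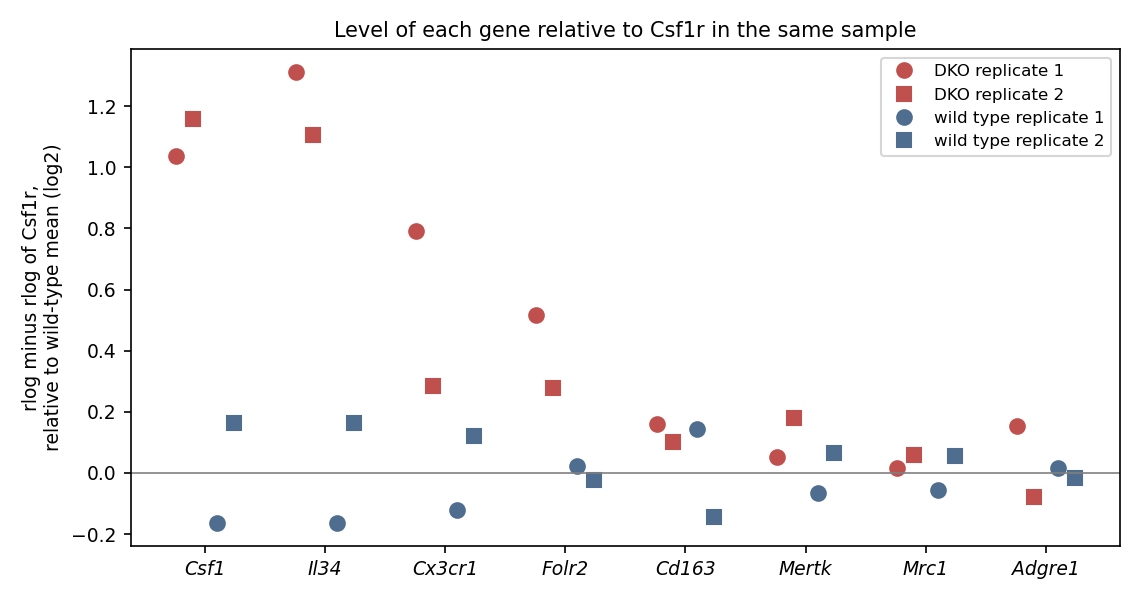
The vertical axis is the rlog of each gene minus that of Csf1r in the same sample, shifted so that the wild-type mean is 0 (log2); red points are DKO, left, and blue points wild type, right, with circles for replicate 1 and squares for replicate 2. Csf1 and Il34 lie 1.1 and 1.21 higher in DKO, Cx3cr1 0.54 and Folr2 0.40 higher, and Cd163, Mertk, Mrc1 and Adgre1 overlap between the groups.

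The falls of Csf1r, Adgre1 and Mrc1 went along with lower levels of leukocyte genes at large. All 12 genes of the leukocyte list had lower values in both DKO samples than in both wild-type samples, against 30.3% of all tested genes, with a median difference of -0.19, and 1 of them, Arhgdib, passed (-0.35, SE 0.0974, adjusted p = 0.0322), though not without DKO replicate 1 or either wild-type sample (adjusted p = 0.0943, 0.137 and 0.203). When every sample was centred on the mean of these 12 genes, the median difference of all tested genes moved to 0.19, and 3785 genes rose (28.0%) and 206 fell (1.52%), a share of rises among calls of 94.8% against 67.2% without centring. On that scale Csf1r was at -0.20 (adjusted p = 0.147), Adgre1 at -0.16 (adjusted p = 0.169) and Mrc1 at -0.16 (adjusted p = 0.239), none of which passed, and Mertk was at -0.08. Csf1 and Il34 were at 0.90 (adjusted p = 0.000199 in limma) and 1.01 (adjusted p = 0.000193). Centring adds the same amount, upwards here, to the difference of every gene. The rises of the ligands could thus only grow and the falls move up, so the centred values are no test of the rises. Relative to the mean of C1qa, C1qb and C1qc, complement genes of macrophages, Csf1r was 0.89 and 0.91 in DKO and 0.94 and 0.69 in wild type, with overlapping groups. The macrophages are themselves leukocytes, so this scale removes a part of any change in their number.

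**Figure D3:**
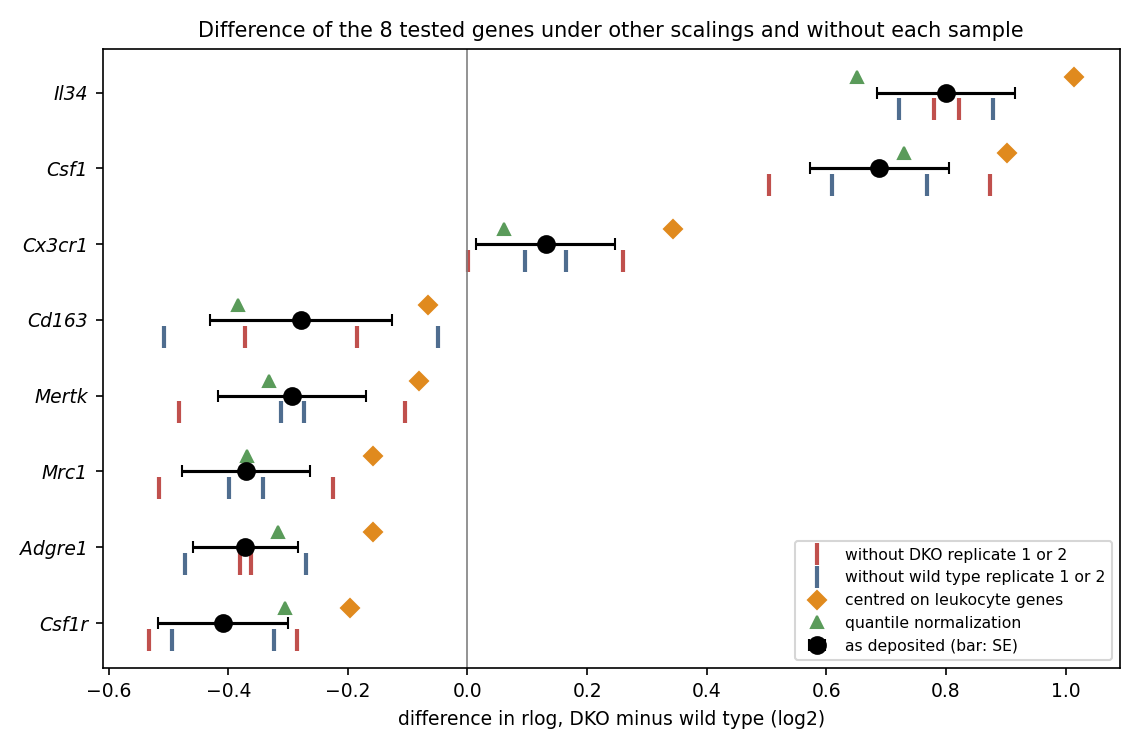
The horizontal axis is the difference in rlog, DKO minus wild type (log2), for the 8 tested genes. Black points with SE bars use the values as deposited, diamonds are centred on the leukocyte genes, triangles are quantile normalized, and ticks leave out 1 DKO (red) or 1 wild-type (blue) sample. Csf1 and Il34 stay above 0.5 in every case shown. Csf1r, Adgre1 and Mrc1 lie nearer to 0 when centred on leukocyte genes (-0.20, -0.16 and -0.16), which moves every gene up by the same amount.

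The replicates of DKO were not alike in several of these genes. In DKO replicate 2, 7 of the 8 tested members were higher than in DKO replicate 1, against 50.9% of all tested genes, by 0.38 for Mertk, 0.37 for Csf1 and 0.29 for Mrc1. Cx3cr1 was the exception, with 0.26 less. Among the 7 the gap was only 0.02 for Adgre1 and 0.04 for Il34. DKO replicate 1 had the lowest value of Csf1r, Adgre1, Mertk, Cd163 and Mrc1 among the 4 samples, and wild-type replicate 1 had the highest value of each of these 5 genes. Among 26 other tested macrophage genes 20 were higher in DKO replicate 2 than in DKO replicate 1.

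Other macrophage genes were lower too, unevenly. Of 28 such genes 26 were tested, of which 11 fell and 3 rose, with a median of -0.30 (against -0.29 over the 8 tested members), and without wild-type replicate 1, 7 fell and 1 rose. Centred on leukocyte genes, 8 fell and 5 rose. Of all tested genes 4.85% fell and 9.92% rose as deposited, and 1.52% fell and 28.0% rose when centred. Trem2, a lipid receptor, fell by 0.97 (SE 0.117), the scavenger receptor Marco by 1.16 (SE 0.203) and the complement gene C1qb by 0.50 (SE 0.0885, adjusted p = 0.00247, and -0.29 when centred on leukocyte genes). A robust variance estimate left Marco short of the threshold (adjusted p = 0.17). The genes that rose were Lyve1, a receptor for hyaluronan that lymphatic vessels share (1.07, SE 0.175), the chemokine Ccl7 (0.60, SE 0.152) and the growth factor Igf1 (0.49, SE 0.121), the last pair of which stromal cells also make. Of these, Lyve1 was also counted in the endothelial list above. Ccl7 fell short of the threshold once wild-type replicate 1 was left out (adjusted p = 0.0976) and with a robust variance (adjusted p = 0.181), and was at 0.37 without DKO replicate 2. Igf1 was lost without DKO replicate 1 (0.29, adjusted p = 0.0757) and without wild-type replicate 1 (adjusted p = 0.0592).

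Transcription factors of the lineage and genes of receptor signalling gave falls and 0 rises. Of 16 factors 4 fell (4.85% of all tested genes fell), among them the following. Spi1, which encodes PU.1, the master regulator of macrophages that drives Csf1r, fell by 0.58 (SE 0.0988, adjusted p = 0.00204), Cebpb by 0.75 (SE 0.156) and Irf5 by 0.32 (SE 0.0834). Without DKO replicate 2, 7 fell and 1 rose. Cebpb fell short of the threshold with a robust variance (adjusted p = 0.135) and was at -0.44 without DKO replicate 1. Irf5 did not pass without DKO replicate 1 or either wild-type sample (adjusted p = 0.0533, 0.191 and 0.0526). Of 18 genes of receptor signalling 4 fell, among them the Src-family kinases Fgr (-0.44, SE 0.0795) and Lyn (-0.34, SE 0.0804) and the adaptor Tyrobp (-0.39, SE 0.0835). Without wild-type replicate 1, 2 of the 18 fell, with Lyn at an adjusted p = 0.172 and Tyrobp at 0.0517, and without wild-type replicate 2 Tyrobp was at 0.0866. When centred on leukocyte genes, Irf5, Lyn, Tyrobp and Fgr were at -0.11, -0.13, -0.18 and -0.22 (adjusted p = 0.272, 0.224, 0.121 and 0.055). On that scale there were 3 rises and 3 falls among the factors, and 2 rises and 1 fall in signalling. Of all tested genes 28.0% then rose and 1.52% fell. Adam17, a protease that sheds the receptor, was at -0.03 (SE 0.0827). Which cells gave the falls in these lists was not tested, nor whether they go with signalling of Csf1r.

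The neighbouring growth factor axes went their own ways. Of 14 tested genes 4 rose (9.92% of all tested genes rose) and 2 fell (4.85%), with a median of -0.06. Of these 14, Pdgfra and Pdgfrb were also counted in the fibroblast list above. The rises were the receptors Pdgfra, Pdgfrb (0.88, SE 0.109) and Kit (0.71, SE 0.0922), relatives of Csf1r among receptor kinases, and the ligand of the last, Kitl (0.68, SE 0.143, and 0.45 without DKO replicate 1). Flt3, the relative found on dendritic cell precursors, was at 0.03 (SE 0.115) and its ligand Flt3l at -0.11 (SE 0.12). Csf3r, the receptor of granulocyte growth factor, fell by 0.50 (SE 0.0875), and its ligand Csf3 was at -0.39 (SE 0.174, adjusted p = 0.185), with -0.73 without DKO replicate 2 and -0.04 without DKO replicate 1. Csf2, which supports monocyte-derived cells, was at 0.40 (SE 0.141, adjusted p = 0.0901, with 0.65 without DKO replicate 2 and 0.14 without DKO replicate 1), and its receptor genes Csf2ra, Csf2rb and Csf2rb2 were at -0.22, -0.18 and -0.18. Of the other receptors of the Il34 protein, Sdc1, which plasma cells carry, fell by 0.74 (SE 0.118), and Ptprz1 had a mean rlog of 3.07, under the minimum. Of the 17 tested ligands, relatives and partners of the marker receptors named above 7 rose and 2 fell. The rises not yet named were Mfge8, a bridge to dying cells (0.87, SE 0.0811), and Lrp1, a receptor of haem complexes (0.45, SE 0.1), whose adjusted p was 0.161 once wild-type replicate 2 was left out.

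**Figure D4:**
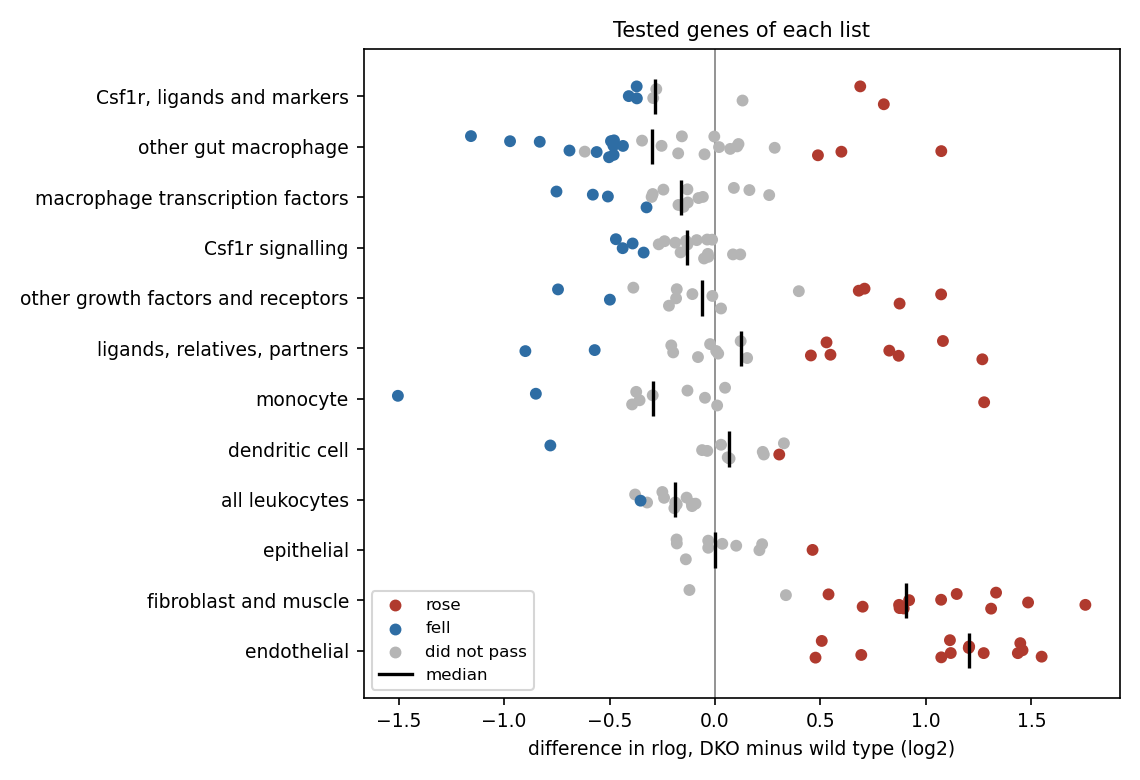
Each point is 1 tested gene, placed by its difference in rlog, DKO minus wild type (log2), in rows for the 8 tested members and 11 other lists; red rose, blue fell, grey did not pass, and the black line is the list's median. Calls of the members lie on both sides of 0, fibroblast and endothelial genes lie mostly above 0.5, and macrophage lists have falls down to -1.16.

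Markers of other myeloid cells were set beside the members, where 9.92% of all tested genes rose and 4.85% fell. Of 11 monocyte genes 2 fell, Chil3 (-1.5, SE 0.128) and Ly6c2 (-0.85, SE 0.0894), and Ace rose (1.28, SE 0.0983), with a summed level of 14.64 to 14.76 in DKO and 14.81 to 14.88 in wild type. Without DKO replicate 1, 6 fell and 1 rose. Of 10 dendritic cell genes 1 rose, Zbtb46 (0.30, SE 0.0907, adjusted p = 0.0453), and 1 fell, Siglech of plasmacytoid cells (-0.78, SE 0.182, adjusted p = 0.0135), and without wild-type replicate 1 only Siglech passed. Zbtb46 was lost without DKO replicate 2 or either wild-type sample (adjusted p = 0.115, 0.103 and 0.295), and Siglech was at -0.44 without DKO replicate 2 and had an adjusted p = 0.0523 with a robust variance. The part of these cells in the falls of Csf1r and Adgre1 was not tested.

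The genes whose profile over the 4 samples was most like that of Csf1r were searched among 12736 tested genes with an established symbol, by the root mean square difference of values centred on each gene's mean. They were Ncf1 (0.0168), Rhog (0.017), Mxi1 (0.0229), Cd68 (0.0258) and Hk3 (0.0265), all on the log2 scale. For Csf1 they were Cpxm1 (0.04), Ackr2 (0.0453), Rbpms2 (0.0469), Ctsk (0.0539) and Nol3 (0.0603), and for Adgre1 Tifab (0.0114), Nod2 (0.0179), Ankrd33b (0.0289), St6galnac1 (0.0311) and Lrrc25 (0.0313). None of the 3 sets shared a gene. With 4 samples many genes lie close to any profile, and the likeness is a description.

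The upstream sequences of Csf1, which rose, and of Mrc1, which fell, are shown as members that moved in opposite directions. Both are the 250 bases before the RefSeq start (GRCm38.p6), 5′ to 3′ on the gene's strand, at chr3:107760470-107760719 (minus) and chr2:14229164-14229413 (plus). Capitals mark matches to the PU.1 core GAGGAA (or TTCCTC on the other strand) and to the GC box of Sp1, GGGCGG (or CCGCCC).
Csf1: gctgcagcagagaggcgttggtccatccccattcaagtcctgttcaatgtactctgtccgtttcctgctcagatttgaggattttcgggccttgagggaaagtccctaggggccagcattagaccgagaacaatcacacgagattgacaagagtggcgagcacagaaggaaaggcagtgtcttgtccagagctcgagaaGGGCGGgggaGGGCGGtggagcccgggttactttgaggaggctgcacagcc
Mrc1: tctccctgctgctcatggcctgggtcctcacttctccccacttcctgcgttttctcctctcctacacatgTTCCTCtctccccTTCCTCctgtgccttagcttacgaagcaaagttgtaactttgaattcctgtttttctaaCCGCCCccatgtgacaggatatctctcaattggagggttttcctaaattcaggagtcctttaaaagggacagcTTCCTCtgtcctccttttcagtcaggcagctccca
Mrc1 had 3 PU.1 cores, starting 180, 167 and 35 bases before the start, and 1 GC box, while Csf1 had 2 GC boxes, starting 51 and 41 bases before it, and 0 PU.1 cores. The windows of Csf1r, Il34 and Adgre1 were not searched. Promoter entries of 6 of the 9 members were searched on both strands: Csf1, Cx3cr1, Mertk, Cd163, Mrc1 and Folr2. Of these only Mrc1 held a PU.1 core, against 23.3% of 32817 windows of the same length, and Csf1, Mrc1 and Mertk (3 matches) held a GC box, against 32.7%. A site of C/EBP, TTGCNNAA, was in 0 of them (9.57% of all windows), and one of AP-1, TGANTCA, was in 1 of the 2 Folr2 windows (6.75%). No matches overlapped each other. Such letters are no evidence of binding, and their absence from these windows says nothing of the factor.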

How the data were processed

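Stranded mRNA libraries, per the labels' protocols, came from mononuclear cells of the lamina propria in 2 DKO and 2 wild-type samples. The authors deposited log2 values, named rlog in the deposited table. The submitters' processing notes name cutadapt 1.9.1, STAR 2.5.4a, Subread 1.5.2 with featureCounts, DESeq2 and GRCm38, but not their settings. Counts and depth were not analysed here, and 2 columns with no labelled sample were not used. Whether these entered the rlog transformation, which shrinks values across all samples given to it, is not stated, and the printed differences could depend on that. Whether replicates are separate animals is not stated, so the spread behind the p-values is that between these samples and may be technical. Symbols, positions and merged exon lengths came from GENCODE M21 (48144 of 48526 identifiers matched). The 13528 genes whose rlog averaged 4 or more were fitted in R 4.3.3 with limma 3.58.1, group as the only term, a mean-variance trend and two-sided tests with Benjamini-Hochberg adjustment (threshold 0.05). Differences are DKO minus wild type, with moderated SE. The fit was tested on simulated data. Members and the 11 other lists were chosen with earlier results of these data known. The text names all members, up to 4 genes of each list with the smallest p (apart from items not reported here), genes that a sentence counts or that are paired with a member as ligand, receptor or relative (some of these chosen after their values were seen), and the 5 nearest profiles of 3 members. Alternatives were no filter, a mean of at least 6, no variance trend, a robust variance estimate, median centring, quantile normalization, centring on 12 leukocyte genes, array weights, other thresholds and leaving out each sample. Recounting the lists under them was added after seeing the data.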

Additional observations from a re-analysis of the deposited data

How the results depend on the processing

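The labels give no replicate numbers, and those used here only tell the 2 samples of a group apart. No pairing of samples is given either, so no paired analysis was run. Of the 8 tested members each kept its direction under every alternative that could be computed, but for many alternatives this was fixed in advance. Those that change only the genes kept, the variance estimate or the threshold leave the difference as it is, and array weights gave the same differences. Centring on leukocyte genes raises every difference alike, so it cannot turn a rise. Where the groups did not overlap, leaving out 1 sample cannot turn the sign. With no filter on low values 206 genes passed (181 rises, 25 falls) in place of 1998, and 0 of the 9 members did in limma, with 5 at an unadjusted p under 0.05. Centring on leukocyte genes gave 3991 genes and 2 members, quantile normalization gave 3 members, and a threshold of 0.01 gave 1195 genes. Without single samples the count of genes ran from 1332 to 2882 and that of members from 2 to 6. Csf1 minus Csf1r ran from 0.93 to 1.26 there. A fit without a sample gives the group's remaining sample the spread of the other group. Csf1 and Il34 passed under every alternative except no filter (adjusted p = 0.138 and 0.0571), and with a mean of at least 6 Il34 and Cd163 were not tested. The cause of these changes was not tested. Depth is unknown and rlog is shrunk, which limits what can be seen for Folr2, Cd163 and Il34.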
